A study of Mus musculus with 9 samples.

Results

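I6 was 1 of 8 clusters of cholinergic interneurons in the mouse spinal cord, and its nuclei were chosen by the cluster name in the deposited annotation. It held 544 nuclei, which were 10.1% of the 5375 interneuron nuclei and 3.39% of the 16042 cholinergic nuclei, which fell into 21 clusters in all. The study profiled single nuclei from adult spinal cord in 9 libraries, 3 replicate pools for each of the cervical, thoracic and lumbar/sacral regions. Every mouse was 8 weeks old and carried the Chat-IRES-Cre driver and the Sun1-sfGFP reporter, each in a single copy (Chat-iCre:+/wt; SUN-SfGFP:+/wt), and no group was without the driver. Cre is made where the choline acetyltransferase gene is active, and it then tags the nuclear envelope with GFP for good, so the sort on GFP and on the DNA dye DRAQ5 also takes nuclei whose cells used this gene at an earlier stage. Each pool was made from 4 mice, replicate 1 from males and females, replicate 2 from males and replicate 3 from females, and the 3 regions of a pool came from the same mice. I6 nuclei numbered 87, 27 and 50 in the cervical libraries, 48, 86 and 75 in the thoracic libraries and 56, 58 and 57 in the lumbar/sacral libraries, in the order of the replicates.

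Most neurons that make acetylcholine in the spinal cord are motor neurons, but some are interneurons that stay within the cord. The best known of these, the partition cells, lie near the central canal, arise from ventral progenitors that express Dbx1 and send the large cholinergic terminals called C boutons onto skeletal motor neurons, where they raise excitability through muscarinic receptors. Other cholinergic interneurons of the cord also make the inhibitory transmitter GABA, and the clusters I1 to I4 carried the genes for it. The levels in I6 are therefore set beside those in the pool of I1 to I4 (3758 nuclei) and, where it helps, in I5 (584 nuclei), another of the interneuron clusters.

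The values were read counts that the authors had corrected for sequencing depth. They were summed over the nuclei of a cluster in each library, scaled so that every sum had the same total and are given as CPM, and a mean ± SD is taken over the 9 libraries unless stated otherwise. The median corrected total was 7489 per nucleus in I6, 6288 in the pool and 7601 in I5, the library medians of I6 ranged from 4730 to 16348, and the I6 sums ranged from 256845 to 750392 counts. I6 nuclei had a median of 3142 genes with a count and pool nuclei 2547. Of the cholinergic nuclei, 164 (1.02%) were called doublets, 2 of them in I6, and 66 shared a barcode with a nucleus of another library, 3 of them in I6. The libraries labelled cervical replicate 2 and thoracic replicate 2 went against their labels in the Hox genes, which mark position along the cord. Over all cholinergic nuclei, Hoxc5 stood at 73.3 CPM in the library labelled cervical replicate 2 and at 25.4 and 22.5 CPM in the other cervical libraries. In the library labelled thoracic replicate 2 it stood at 13.9 CPM, against 85.3 and 84.2 CPM in the other thoracic libraries. Hoxa9, a gene of more caudal segments, followed the same split, with 9.68 CPM in the library labelled cervical replicate 2 and 0.507 CPM in the library labelled thoracic replicate 2. The I6 nuclei carried the same reversal, with Hoxc5 at 15.6, 77.5 and 14 CPM in the cervical libraries and 88.6, 8.00 and 65.8 CPM in the thoracic libraries. The labels were kept, and the counts of genes and the share of I6 are also given without these 2 libraries. All 3 lumbar/sacral libraries had the caudal gene Hoxd11, at 27.3, 31.0 and 23.0 CPM over all cholinergic nuclei, and the other 6 libraries had it listed at 0.

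The marker pair Mpped2 and Pax2 was present in I6 in every library. Mpped2, which codes for a metallophosphoesterase, stood at 394 ± 86.9 CPM in I6, 175 ± 15.5 CPM in the pool and 347 ± 68.3 CPM in I5, and 88.5% of I6 nuclei had a count of it, with library values from 73.7% to 100%. Pax2, a transcription factor of inhibitory interneurons of the dorsal and ventral cord, stood at 98.3 ± 20.2 CPM in I6 and 258 ± 43.1 CPM in the pool, and counts were found in 52.0% of I6 nuclei and 78.6% of pool nuclei. Both markers were therefore detected, with the first above the pool and the second below it. Chat was above the pool in I6, at 294 ± 76.8 CPM against 148 ± 14.8 CPM. The summed level of 6 skeletal motor neuron markers was 167 to 308 CPM in I6 and 296 to 388 CPM in the pool, and that of 5 visceral motor neuron markers 49.3 to 101 CPM against 601 to 723 CPM. The gap in the visceral sum was mostly that of Nos1, whose levels are given below. By the rule given below, Nos1 was the only lower gene of 3 visceral markers compared (median log2 difference 0.25). Of 2 skeletal markers compared, Bcl6 was higher and none was lower (median 0.54). Glial markers were low in both. The 8 oligodendrocyte markers summed to 28.7 to 65.5 CPM in I6 and 48.3 to 83.3 CPM in the pool. The 7 astrocyte markers reached 27.3 to 76.0 CPM in I6, and the defining markers Gfap and Agt were listed at 0. The 5 microglial markers ranged from 29.5 to 154 CPM in I6 and from 22.6 to 126 CPM in the pool, with Tmem119 at 0 in I6. Markers of endothelium (3 genes) reached at most 26.2 CPM in I6, those of oligodendrocyte precursors (3 genes) at most 19.1 CPM with Pdgfra at 0, and those of ependymal and cerebrospinal fluid-contacting cells (4 genes) at most 6.66 CPM with Pkd2l1 at 0. The reporter itself, listed as GFP-Plasmid, stood at 12.2 ± 6.57 CPM in I6.

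The clusters had been drawn from the expression of the same nuclei, so differences between I6 and another cluster are described here by their size and by how many libraries show them, with no test. A gene was counted as higher or lower where the mean difference in log2(CPM + 5) reached 1 and had the same sign in all 9 libraries, and by this rule 385 of 10438 genes (3.69%) were higher in I6 than in the pool and 391 (3.75%) were lower. Those shares are the background for each gene group below, and the median difference of all genes was 0.10. Under median-of-ratios scaling that median was −0.03, with 324 genes higher and 460 lower, and with a pseudocount of 20 CPM 236 were higher and 236 lower. Without the libraries labelled cervical replicate 2 and thoracic replicate 2, 394 were higher and 392 lower.

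Several genes that specify neurons by time and place of birth were higher in I6 than in the pool. Of 14 such factors compared, 7 were higher (Onecut2, Onecut3, Pou2f2, Zfhx3, Zfhx4, Tox3 and Rorb) and 2 lower (Nfib and Neurod2), with a median difference of 1.0. Most of these differences did not hold against I5. Of 14 compared there, Pou2f2 and Zfhx3 were higher and Nfia, Maf, Tox and Tox3 lower (median −0.17). Zfhx3, a large zinc finger and homeodomain factor, stood at 1292 ± 243 CPM in I6 against 39.0 ± 12.2 CPM in the pool and 638 ± 133 CPM in I5. Meis2, a homeodomain partner of Hox proteins, stood at 730 ± 88.0 CPM against 23.4 ± 10.4 CPM. Among 8 lineage factors of the ventral interneuron classes, 1 was higher and Pax2 and Pax8 were lower (median −0.04), and Evx1, Evx2 and En1 were listed at 0 in every I6 sum. Of 12 Hox genes compared, 6 were lower in I6, all from the Hoxb cluster (Hoxb3, Hoxb4, Hoxb5, Hoxb6, Hoxb8 and Hoxb9), with a median of −0.97. Pax8 stood at 2.07 ± 2.62 CPM against 155 ± 33.7 CPM in the pool, and Ebf2, a helix-loop-helix factor, stood at 7.80 ± 6.09 CPM against 554 ± 72.2 CPM, a mean log2 difference of −5.58 ± 0.595.

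I6 had higher levels of cholinergic genes than the pool and lower levels of the genes for GABA and glycine. Of 7 cholinergic genes compared, 3 were higher than in the pool and none was lower, with a median difference of 0.92. Chat itself, with a mean log2 difference of 0.92 ± 0.431, was just under the limit. Slc5a7, the choline transporter that feeds acetylcholine synthesis, stood at 409 ± 141 CPM in I6 and 142 ± 18.9 CPM in the pool. Slc10a4, a vesicle protein of cholinergic terminals, stood at 21.5 ± 11.0 CPM against 0.766 ± 0.452 CPM, and Prima1, which anchors acetylcholinesterase in the membrane, at 235 ± 78.5 CPM against 29.7 ± 6.36 CPM and 522 ± 146 CPM in I5. Of 7 GABA and glycine genes, 5 were lower and none was higher, with a median of −3.13. Gad2 and Gad1 code for the enzymes that make GABA: Gad2 stood at 6.82 ± 9.87 CPM against 170 ± 26.4 CPM and Gad1 at 5.52 ± 3.05 CPM against 89.8 ± 10.2 CPM. The transporter Slc32a1, which fills vesicles with GABA and glycine, stood at 4.14 ± 3.32 CPM against 40.6 ± 21.0 CPM, and the glycine transporter Slc6a5 at 3.73 ± 2.87 CPM against 71.2 ± 16.5 CPM.

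Slc17a6, which codes for the vesicular glutamate transporter VGLUT2 (GRCm38 chromosome 7, 51622006 to 51671119, plus strand), was higher in I6 than in either comparison cluster. Its I6 levels were 45.1, 16.4 and 45.9 CPM in the cervical libraries, 37.4, 50.6 and 33.8 CPM in the thoracic libraries and 62.3, 60.4 and 62.3 CPM in the lumbar/sacral libraries. The pool stood at 6.27 ± 3.38 CPM and I5 at 3.22 ± 2.87 CPM, and the lowest I6 library, at 16.4 CPM, lay above the highest pool library at 12.7 CPM and the highest I5 library at 8.21 CPM. Counts were found in 27.1% of I6 nuclei, 3.74% of pool nuclei and 2.42% of I5 nuclei, and after each nucleus was thinned to 4600 counts, which left 509 of the 544 I6 nuclei, the shares were 18.6%, 3.32% and 2.08%. I5 had about the same median corrected total per nucleus as I6. The counts had been corrected for sequencing depth, so like totals do not show like depth. The part of stray counts in the Slc17a6 values was not tested. Of 6 genes for monoamines, nitric oxide and ATP, Ddc and Nos1 were lower and none was higher (median −0.03). Nos1, the neuronal nitric oxide synthase that marks many autonomic and dorsal neurons, stood at 14.1 ± 7.35 CPM in I6 and 616 ± 44.8 CPM in the pool.

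**Figure D1:**
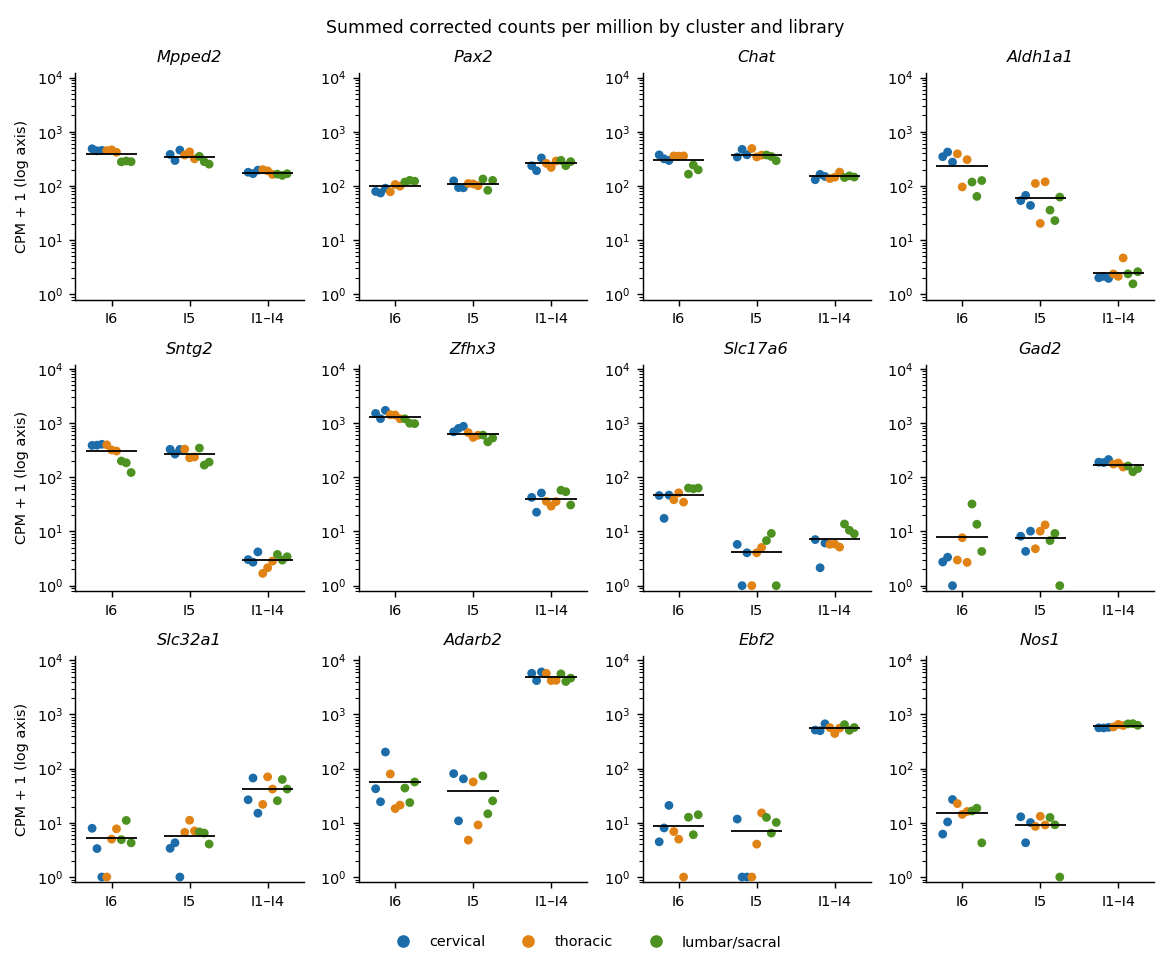
Levels of 12 genes, CPM + 1 on a log axis, in I6, I5 and the pool of I1 to I4. Each point is 1 of the 9 libraries coloured by region and the line is their mean. Aldh1a1, Sntg2 and Zfhx3 stand high in I6 and far lower in the pool, Adarb2, Ebf2 and Nos1 do the opposite, and Slc17a6 is higher in I6 than in both.

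The largest differences above the pool were those of Sntg2, Aldh1a1, Zfhx3, Gm21847 and Ust. Sntg2 (chromosome 12, 30174482 to 30373375, minus strand) codes for a neuronal syntrophin, a scaffold under the membrane, and stood at 387, 390 and 405 CPM in the cervical, 396, 318 and 304 CPM in the thoracic and 199, 184 and 121 CPM in the lumbar/sacral libraries. The pool mean was 1.97 ± 0.771 CPM, a mean log2 difference of 5.36 ± 0.679, and all 9 I6 values lay above it. Aldh1a1 (chromosome 19, 20492715 to 20643465, plus strand), an aldehyde dehydrogenase that can make retinoic acid, stood at 345, 421 and 273 CPM in the cervical libraries, 390, 94.6 and 304 CPM in the thoracic libraries and 117, 62.9 and 125 CPM in the lumbar/sacral libraries. The pool stood at 1.43 ± 0.897 CPM. Its I6 values lay farther apart than those of Sntg2, with the lowest in a lumbar/sacral library. Gm21847, an antisense transcript (chromosome 5, 15516489 to 15656679, plus strand), varied most among them, from 35.0 to 528 CPM in I6 with a median of 149 CPM, and stood at 0.725 ± 0.470 CPM in the pool. Ust, a sulfotransferase for uronic acid in proteoglycans, stood at 419 ± 117 CPM against 9.52 ± 3.87 CPM. Ldb2, an adaptor for LIM-homeodomain factors, stood at 939 ± 241 CPM against 31.2 ± 12.8 CPM, and Dlk1, a membrane ligand of the Notch family, at 204 ± 80.3 CPM against 2.47 ± 0.771 CPM. Bmpr1b, a receptor for bone morphogenetic proteins, stood at 422 ± 181 CPM against 11.5 ± 3.95 CPM, Gpc4, a cell-surface proteoglycan, at 185 ± 63.0 CPM against 3.17 ± 1.15 CPM, and Sema5a, a guidance molecule, at 403 ± 146 CPM against 18.5 ± 8.00 CPM. Gldn, Fam19a2 and Gm12082 were also among the 15 genes with the largest differences, at 157 ± 57.4, 438 ± 261 and 84.7 ± 33.6 CPM in I6.

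The genes farthest below the pool began with Adarb2, an inactive member of the RNA-editing deaminases, at 56.0 ± 58.1 CPM in I6 and 4957 ± 822 CPM in the pool, a mean log2 difference of −6.72 ± 0.843. In I5 it stood at 36.9 ± 30.7 CPM. Piezo2, the mechanically gated channel, stood at 7.11 ± 13.1 CPM against 300 ± 67.3 CPM, and its I6 mean rested on a single library, cervical replicate 3, at 41.9 CPM, with the other 8 at or below 3.94 CPM. Cervical replicate 3 was also the highest I6 library for Adarb2, at 202 CPM against 17.3 to 78.8 CPM in the others. Otof, a calcium sensor of vesicle release, stood at 4.76 ± 5.51 CPM against 304 ± 48.6 CPM, and Col18a1, a collagen of basement membranes, at 2.59 ± 3.76 CPM against 120 ± 24.8 CPM. The channel subunits Kcnmb2 and Cacna2d3 stood at 15.2 ± 15.1 and 68.7 ± 50.8 CPM against 405 ± 24.9 and 994 ± 234 CPM. Nxph1, a secreted ligand of neurexins, stood at 214 ± 106 CPM against 3106 ± 554 CPM, and Sox6, a factor of interneuron differentiation, at 9.59 ± 6.73 CPM against 200 ± 41.1 CPM. C130071C03Rik, Tcerg1l and Zfp536 were also among the 15, at 6.14 ± 4.06, 16.7 ± 11.1 and 12.6 ± 9.04 CPM in I6.

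The receptors and channels of I6 differed from those of the pool in both directions. Of 18 GABA and glycine receptor genes, 6 were higher (Gabra2, Gabra4, Gabrb1, Gabrg3, Gabrq and Glra2) and 2 lower, with a median of 0.11. Gabrb1, a subunit of the ionotropic GABA receptor, stood at 1912 ± 391 CPM against 784 ± 166 CPM. Of 17 ionotropic glutamate receptor genes, 2 were higher and 3 lower (median −0.31), with Gria1 at 742 ± 247 CPM against 1678 ± 191 CPM. Of 6 metabotropic ones, 1 was higher and Grm7 and Grm8 were lower (median −0.63). Among 4 muscarinic and nicotinic receptor genes, Chrna3 and Chrna7 were lower and none was higher (median −1.83). Of 12 monoamine receptor genes, Adra1a and Drd2 were higher and Htr1f, Htr2a and Htr2c lower (median 0.04). Among 14 peptide receptor genes, Tacr1, the receptor for substance P, was higher at 391 ± 130 CPM against 39.8 ± 8.40 CPM, and Oprm1, Galr1 and Hcrtr2 were lower (median 0.01). Of 39 potassium channel genes, 3 were higher and 8 lower (median −0.25), and Kcnip4, which binds A-type channels, had the highest pool level of the 8 at 9582 ± 1673 CPM against 1010 ± 928 CPM in I6. Of 25 sodium, calcium and HCN channel genes, Cacna2d1 was higher and 3 were lower (median 0.08). Of 11 TRP, Piezo and acid-sensing channel genes, Piezo2 and Trpm3 were lower (median −0.29).

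Genes tied to C boutons, peptides, adhesion and retinoids also differed. Of 14 genes linked to C bouton synapses or to vesicle release there, 3 were higher and none was lower, with a median of 0.07. Erbb4, the neuregulin receptor, stood at 2455 ± 404 CPM against 623 ± 147 CPM, and Syt1, the fast calcium sensor of release, at 5093 ± 1608 CPM against 2322 ± 436 CPM, while Nrg1, which codes for a ligand of Erbb4, was not counted in either direction, at 2519 ± 692 CPM against 4237 ± 700 CPM. Of 13 genes for neuropeptides and for secreted ligands of neurexins, Cartpt was higher and Pnoc, Nxph1 and Nxph2 lower (median −0.18). Of 34 axon guidance genes, 8 were higher and 5 lower (median −0.01), among them Slit3 at 449 ± 68.6 CPM against 80.2 ± 23.1 CPM and Unc5c at 231 ± 82.2 CPM against 1393 ± 213 CPM. Of 21 cadherins, Cdh6, Cdh11 and Cdh18 were higher and 4 lower (median −0.40), and Cdh18 stood at 2889 ± 809 CPM against 961 ± 252 CPM. Of 7 genes of retinoid and aldehyde metabolism, Aldh1a1 and Rxrg were higher and Rarb lower (median 0.50). In a group of 7 genes, for calcium-binding proteins and the synuclein Sncg, Sncg was higher and Necab1, Hpcal1 and Ncald were lower (median −0.92). None of 3 immediate early genes was counted (median 0.47).

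I6 also differed from I5, by fewer genes than from the pool. By the same rule 226 of 10912 genes (2.07%) were higher in I6 than in I5 and 198 (1.81%) were lower, with a median of −0.05 over all genes. Ankfn1 stood at 660 ± 188 CPM in I6 against 25.8 ± 24.4 CPM in I5, the largest mean difference above I5 at 4.70 ± 0.738. Galntl6, a glycosyltransferase, stood at 1206 ± 405 CPM against 119 ± 70.5 CPM, and Arpp21, an RNA-binding phosphoprotein, at 563 ± 133 CPM against 49.8 ± 34.7 CPM. Fam19a1, Hs3st4, Baiap3, Rasgrf2 and Grik3 were the other 5 of the 8 largest, and Fam19a1, a secreted peptide, stood at 286 ± 204 CPM against 14.6 ± 15.6 CPM. Below I5 were Gm12649, Npsr1, Gm13912, Ror2, Fam196b, Cyp39a1, Chrm3 and Tox. The muscarinic receptor gene Chrm3 stood at 60.2 ± 50.6 CPM against 682 ± 272 CPM, and Tox, a nuclear factor with an HMG box, at 31.2 ± 28 CPM against 273 ± 73.0 CPM.

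Among gene groups, 10 of 39 potassium channel genes were higher in I6 than in I5 and 2 were lower, with a median of 0.29. Of 17 ionotropic glutamate receptor genes, Grik1, Grik3, Grik4 and Grid1 were higher and none was lower (median 0.12). Of 11 monoamine receptor genes, Htr2c, Htr4, Adra1a and Drd2 were higher and none was lower (median 0.55), and of 13 peptide receptor genes 4 were higher (Tacr1, Crhr1, Hcrtr1 and Lepr) and 2 lower (median 0.83). Of 21 cadherins, 5 were higher and 3 lower (median 0.26). Of 35 axon guidance genes, Unc5c was higher and Robo2, Slit2, Slit3 and Ntng2 were lower (median −0.24). In the group of 14 C bouton genes, Nrg3, Erbb4, Syt9 and Cadps2 were higher and Nrg1 was lower (median −0.12), with Nrg1 at 5979 ± 1716 CPM in I5. Of 7 cholinergic genes Prima1 was lower (median −0.24), and Chat stood at 377 ± 63.8 CPM in I5. Aldh1a1 stood at 58.5 ± 35.3 CPM in I5 and was also higher in I6 there.

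The share of I6 among interneuron nuclei was lowest in the lumbar/sacral libraries. It was 11.3%, 16.8% and 10.8% in the cervical libraries, 11.7%, 13.1% and 17.7% in the thoracic libraries and 5.08%, 8.09% and 8.46% in the lumbar/sacral libraries, so that no lumbar/sacral value overlapped the others. The means were 13.0% ± 3.30, 14.2% ± 3.16 and 7.21% ± 1.85 (SD, n = 3). A two-sided exact permutation test over the 3 regions gave p = 0.05 (1680 assignments), which was 0.15 after Benjamini-Hochberg adjustment over 6 tests of shares. The difference of −6.37 points between the lumbar/sacral and the other 6 libraries had an exact permutation p of 0.0238 (84 groupings, of which the smallest possible p is 0.0119) and 0.143 after adjustment, so neither passed. The share is relative to the other interneurons, and the share of I5 stood at 13.6% ± 1.63, 13.6% ± 2.22 and 7.24% ± 0.964 (SD, n = 3). Taken over all cholinergic nuclei, I6 was 2.88% in the lumbar/sacral and 3.81% in the other libraries, with an exact permutation p of 0.143, and the 3-region test gave an exact permutation p of 0.136 (0.214 adjusted). The omission of the libraries labelled cervical replicate 2 and thoracic replicate 2 was chosen after seeing the data. Without them, the 3-region test of the interneuron share gave an unadjusted exact permutation p of 0.00952 (210 assignments), the smallest possible there. Leaving out 1 library gave an exact permutation p of 0.00714 without the first of them alone and 0.0571 to 0.179 without any other. Between the male and the female pools the share of interneurons differed by 0.326 points, with an exact permutation p of 1 where 0.25 was the smallest possible.

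**Figure D2:**
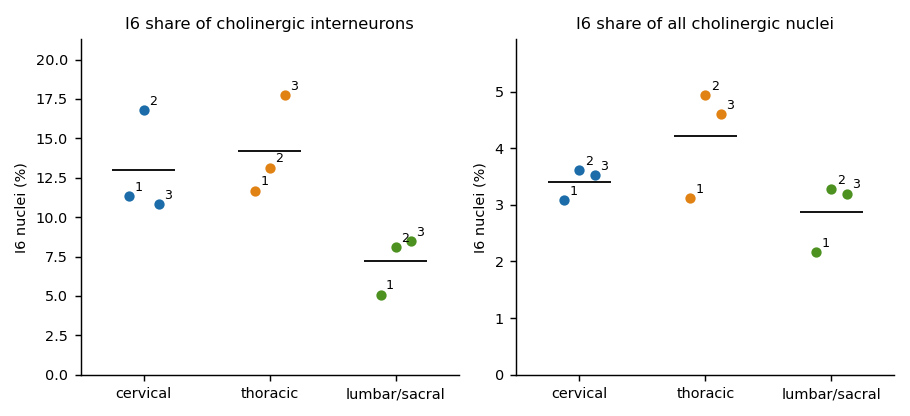
I6 as a percentage of interneuron nuclei and of all cholinergic nuclei in each region. Points are libraries numbered by replicate and lines are means of 3. The lumbar/sacral points lie below all others in the first panel, at 5.08% to 8.46%, and the regions overlap in the second.

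The lumbar/sacral I6 nuclei had higher levels of Cntnap5c, Kcnh5 and Cacna1e than the cervical and thoracic ones, and lower levels of Ror1, Meis1 and the choline transporter gene Slc5a7. The lumbar/sacral libraries were set against the mean of the cervical and thoracic libraries by limma on log2(CPM + 5), with Benjamini-Hochberg adjustment over 10055 genes. At an adjusted p under 0.05, 59 genes (0.587%) were higher and 26 (0.259%) were lower, together 0.845%, while the median of all genes was 0.05. With the replicate pools as a block, 107 were higher and 75 lower, and all 85 of the calls without the block were among them. The counts rest on each library: without lumbar/sacral replicate 1, 12 genes were higher and 11 lower, without replicate 2 of that region 21 and 13, and without replicate 3 of it 13 and 10. Leaving out cervical replicate 1 gave 38 and 14, and leaving out cervical replicate 3 gave 43 and 16. Of the 59 higher genes, 20 were under 10 CPM in every cervical and thoracic sum and entered the test through the lumbar/sacral sums, so the count of higher genes is not set against that of lower ones. Without the libraries labelled cervical replicate 2 and thoracic replicate 2, 59 were higher and 46 lower. No called gene changed direction under any alternative, and of the 43 called genes whose adjusted p is followed below, 11 passed without each of the 9 libraries in turn. Another 7 passed without each cervical and thoracic library but were not tested without a lumbar/sacral one. Beside the pool of I1 to I4, 50 of the 59 higher genes had I6 levels below it and 8 above it (median log2 difference −1.60). Of the 26 lower genes, 22 were above the pool and 4 below it (median 1.57). The median over all genes compared with the pool was 0.10, and the share of all genes below it was not counted. The 59 include the 20 genes that were under 10 CPM in every cervical and thoracic sum. Corrected totals moved with region, with medians of I6 nuclei of 4730 to 7166.5 in the lumbar/sacral libraries and 6461 to 16348 in the others. The part of these totals in the calls was not tested. Summed markers of skeletal motor neurons were 295 to 308 CPM in the lumbar/sacral I6 sums and 167 to 303 CPM in the others, and those of visceral motor neurons 66.2 to 101 CPM and 49.3 to 85.8 CPM. Of the 3 visceral markers tested, Fbn2, which codes for fibrillin 2, was higher, at 23.4, 30.2 and 42.6 CPM in the lumbar/sacral libraries and 0 to 12.1 CPM in the others (log2 difference 1.98, adjusted p = 0.0336, limma). It passed without thoracic replicate 1 and did not pass without any other 1 library (adjusted p = 0.0556 to 0.290, limma).

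Of 9 Hox genes tested in I6, the caudal members Hoxd11 and Hoxa9 passed the test. Hoxd11 was listed at 0 in all 6 cervical and thoracic I6 sums and stood at 35.0, 30.2 and 13.1 CPM in the lumbar/sacral sums. Hoxa9 stood at 27.3, 22.7 and 26.2 CPM in the lumbar/sacral sums and at or below 3.38 CPM elsewhere. Both entered the test only through the lumbar/sacral sums in which they are high, so no p is given for them, and neither passed with a pseudocount of 1. The median difference over the 9 was 0.61.

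The higher genes began with Cntnap5c (chromosome 17, 57769570 to 58410355, plus strand), a contactin-associated adhesion protein, which stood at 22.5, 28.2 and 79.8 CPM in the cervical, 19.7, 65.3 and 15.2 CPM in the thoracic and 428, 320 and 370 CPM in the lumbar/sacral libraries. The lumbar/sacral values did not overlap the others, and the log2 difference was 3.33 ± 0.407 (SE, limma adjusted p = 0.00243) by limma with Benjamini-Hochberg adjustment. Kcnh5 (chromosome 12, 74897220 to 75177332, minus strand), a slowly activating potassium channel, stood at 6.93, 7.05 and 9.98 CPM in the cervical libraries, 9.84, 13.3 and 8.44 CPM in the thoracic libraries and 144, 85.6 and 121 CPM in the lumbar/sacral libraries, again with no overlap. Its log2 difference was 3.08 ± 0.267 (SE, limma). Of the cervical and thoracic sums only thoracic replicate 2 reached 10 CPM, so Kcnh5 met the filter of 3 sums through the lumbar/sacral sums. No p is therefore given for it. Cacna1e (chromosome 1, 154390731 to 154884501, minus strand), the pore of R-type calcium channels, stood at 29.5, 23.5 and 35.9 CPM in the cervical libraries, 21.7, 38.6 and 25.3 CPM in the thoracic libraries and 358, 224 and 164 CPM in the lumbar/sacral libraries. The regions did not overlap here either, with a log2 difference of 2.85 ± 0.265 (SE, limma adjusted p = 0.000654). Fgf10, a secreted growth factor, stood at 35.0, 35.2 and 59.0 CPM in the lumbar/sacral libraries and at 0 in 5 of the other 6, the exception being cervical replicate 3 at 2.00 CPM. Crhbp, which binds corticotropin-releasing hormone, stood at 27.3, 32.7 and 29.5 CPM and at or below 1.97 CPM elsewhere. Hs3st2, Gm11418, Dach1 and Gpc5 were the other 4 of the 10 largest, and the transcription cofactor Dach1 stood at 300, 174 and 220 CPM against at most 79.7 CPM in the other regions. All 10 had lumbar/sacral values that lay above every cervical and thoracic value. These genes were chosen by the size of this same difference, so the separation is no further support. The share of all tested genes with such a separation was not counted. Hs3st2 did not pass without lumbar/sacral replicate 1 (adjusted p = 0.0730, limma) or replicate 3 of that region (0.0556), and Dach1 and Gpc5 did not pass without any 1 of the lumbar/sacral libraries (0.0780 to 0.176 and 0.100 to 0.146). Fgf10, Gm11418, Crhbp and Hoxd11 dropped under the filter on low levels when a lumbar/sacral library was left out.

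The lower genes began with Ror1, a receptor tyrosine kinase for Wnt ligands, which stood at 154, 63.4 and 158 CPM in the cervical, 55.1, 95.9 and 76.0 CPM in the thoracic and 7.79, 22.7 and 6.55 CPM in the lumbar/sacral libraries. The lumbar/sacral values were all below the others, with a log2 difference of −2.61 ± 0.352 (SE, limma adjusted p = 0.00394). Meis1, a homeodomain partner of Hox proteins, stood at 265, 200 and 319 CPM in the cervical libraries, 169, 247 and 172 CPM in the thoracic libraries and 97.3, 40.3 and 65.5 CPM in the lumbar/sacral libraries, without overlap. Its paralogue Meis2, at 771, 627 and 783 CPM in the lumbar/sacral libraries, was not called, with a log2 difference of −0.01 ± 0.161 (SE, limma adjusted p = 0.999). Ephb1, an ephrin receptor of growing axons, stood at 272, 324 and 335 CPM in the cervical libraries, 335, 244 and 297 CPM in the thoracic libraries and 132, 113 and 91.8 CPM in the lumbar/sacral libraries and was lower by limma at a log2 difference of −1.39 ± 0.167 (SE, limma adjusted p = 0.00243). Zfp366, Rgs20, Ripor2, Syndig1, Rorb, Col8a1 and Lpcat2 made up the rest of the 10 largest. Rorb, a nuclear receptor of sensory interneurons, stood at 54.5, 35.2 and 55.7 CPM in the lumbar/sacral libraries and between 101 and 186 CPM elsewhere, and did not pass without lumbar/sacral replicate 2 (adjusted p = 0.0776, limma). Zfp366 did not pass without cervical replicate 1 or lumbar/sacral replicate 1 or 3 (0.0568 to 0.110, limma), and Lpcat2 without cervical replicate 1 or 3, thoracic replicate 3 or lumbar/sacral replicate 2 or 3 (0.0515 to 0.147, limma).

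**Figure D3:**
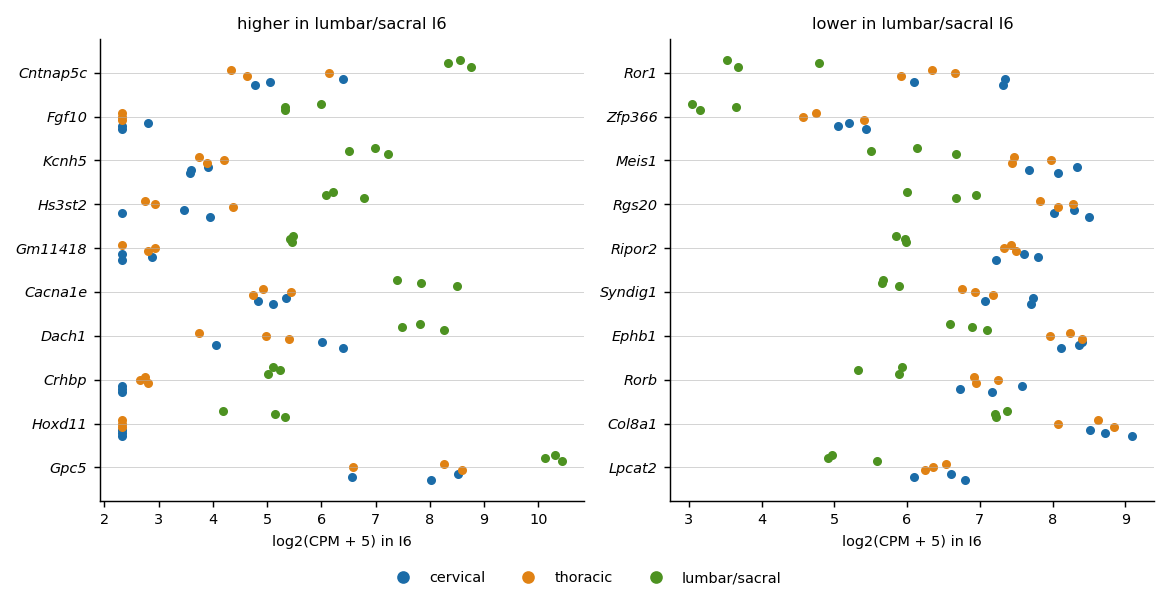
Levels in I6, as log2(CPM + 5), of the 10 genes with the largest rise and the 10 with the largest fall in the lumbar/sacral libraries among those called. Each row is a gene and each point is a library, coloured by region. The 3 lumbar/sacral points stand apart from the other 6 in every row. The rows were chosen by this same contrast, so the separation is no further support.

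Genes of acetylcholine synthesis were lower, with a firmer result for Slc5a7 than for Chat. Chat (chromosome 14, 32408203 to 32465989, minus strand), which makes acetylcholine, stood at 373, 315 and 293 CPM in the cervical, 356, 353 and 356 CPM in the thoracic and 164, 242 and 197 CPM in the lumbar/sacral libraries. The lumbar/sacral values lay below all others, with a log2 difference of −0.76 ± 0.155 (SE, limma adjusted p = 0.0421). Counts of Chat were found in 42.9% to 62.1% of the I6 nuclei of a lumbar/sacral library and in 80% to 96.3% of those of another library, where the median totals were also mostly higher. After thinning to 4600 counts per nucleus, the mean shares were 49.2% in the lumbar/sacral, 74.6% in the cervical and 69.7% in the thoracic libraries. The call of Chat was lost without any 1 of the 9 libraries, at an adjusted p of 0.0547 without lumbar/sacral replicate 2 to 0.293 without lumbar/sacral replicate 1 (limma), while the log2 difference stayed between −0.63 and −0.90. Slc5a7 stood at 508, 562 and 391 CPM in the cervical libraries, 469, 480 and 567 CPM in the thoracic libraries and 206, 259 and 243 CPM in the lumbar/sacral libraries, with a log2 difference of −1.05 ± 0.157 (SE, limma adjusted p = 0.00703). It did not pass without lumbar/sacral replicate 1 (adjusted p = 0.0730, limma) or replicate 3 (0.0588). These were 2 of 7 cholinergic genes tested, and the median of the 7 was −0.38. The marker Mpped2 was lower as well, at 276, 287 and 279 CPM (log2 difference −0.67 ± 0.126 (SE, limma adjusted p = 0.0265), limma), and so was Sntg2 (log2 difference −1.13 ± 0.173 (SE, limma adjusted p = 0.00800), limma). Aldh1a1 had a log2 difference of −1.46 ± 0.371 (SE, limma adjusted p = 0.126) and did not pass the test. Mpped2 did not pass without any 1 of 6 libraries, cervical replicate 1 or 3, thoracic replicate 3 or any lumbar/sacral one (adjusted p = 0.0587 to 0.187, limma), and Sntg2 not without lumbar/sacral replicate 3 (0.0702). Aldh1a1 passed with the replicate block (adjusted p = 0.0169, limma) and without the library labelled thoracic replicate 2 (0.00682).

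Among the other gene groups, calls in I6 were few. Of 12 genes for neuropeptides and for secreted ligands of neurexins, Penk, Cck and Nxph1 were higher in the lumbar/sacral libraries (median 0.29). Penk, the precursor of enkephalins, stood at 42.8, 80.6 and 22.9 CPM there and at or below 9.33 CPM elsewhere. Of 3 muscarinic and nicotinic receptor genes, Chrm3 was higher (median 0.56), and of 12 peptide receptor genes the opioid receptor gene Oprm1 (median −0.39). Grm3 and Grm7 were higher among 6 metabotropic glutamate receptor genes (median 0.27), and the glycine receptor gene Glra3 among 17 GABA and glycine receptor genes (median 0.31). Of 37 potassium channel genes, Kcnh5 and Kcnip4 were higher and Kcnip1 lower (median 0.16). Of 24 sodium, calcium and HCN channel genes, Cacna1e and Cacna1g were higher (median 0.13), and of 10 TRP, Piezo and acid-sensing channel genes Asic2 was higher (median 0.06), at 1943, 1349 and 1409 CPM against at most 633 CPM elsewhere. Of 33 axon guidance genes, Unc5c and Epha4 were higher and Ephb1 lower (median −0.05). Of 21 cadherins, Cdh4 was higher and Cdh11 and Cdh13 lower (median −0.08). Of 13 birth-time factors Rorb was lower (median −0.10). No gene was called among 3 GABA and glycine genes (median 0.04), 3 for glutamate release (−0.07), 5 for monoamines and nitric oxide (−0.27), 6 lineage factors (0.18), 11 monoamine receptors (0.07), 17 ionotropic glutamate receptors (0.11), 14 C bouton genes (−0.07), 5 calcium-binding genes (−0.07), 7 retinoid genes (−0.39) and 3 immediate early genes (−0.07). Kcnh5, Cacna1e, Asic2 and Ephb1 passed without each of the 9 libraries in turn, though Kcnh5 met the filter only with lumbar/sacral sums. Penk, Cacna1g, Oprm1, Epha4 and Cck entered the test through the lumbar/sacral sums and were not tested without a library of that region. No p is therefore given for them. With a cervical or thoracic library left out, the call of Oprm1 was lost in 1 of 6 omissions. That of Epha4 was lost in 5 of 6, that of Cck in 6 of 6, and those of Penk and Cacna1g in none. The highest adjusted p without a library (limma) was 0.0619 for Chrm3 and 0.0711 for Glra3, both without lumbar/sacral replicate 1. It was 0.241 for Kcnip4, 0.209 for Grm7, 0.146 for Grm3, 0.278 for Kcnip1, 0.260 for Unc5c, 0.216 for Nxph1 and 0.121 for Cdh4 without lumbar/sacral replicate 1. It was 0.0855 for Cdh13 without lumbar/sacral replicate 2 and 0.169 for Cdh11 without replicate 3 of that region.

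Whether the regional differences of I6 also held in the pool was tested as the difference between I6 and the pool in each library, lumbar/sacral against the mean of the other regions, over 9053 genes. The difference was higher for 142 genes (1.57%) and lower for 87 (0.961%), together 2.53%, by limma at a Benjamini-Hochberg adjusted p under 0.05, with a median of 0.03 over all genes, and 44 of the 59 higher and 21 of the 26 lower genes of I6 were among them. Without the libraries labelled cervical replicate 2 and thoracic replicate 2, the counts were 175 and 123. They were 83 and 45 without lumbar/sacral replicate 1, 96 and 54 without replicate 2 of that region and 92 and 57 without replicate 3 of it. Kcnh5 had a log2 difference between regions of 3.08 in I6 and −0.57 in the pool. The test of the difference gave 3.65 ± 0.218 (SE, limma). No p is given, since the I6 levels of Kcnh5 met the filter only with the lumbar/sacral sums. Cntnap5c had 3.33 in I6 and −0.10 in the pool, and Chrm3, a muscarinic receptor, 2.11 and −0.75. Adcy2, an adenylyl cyclase, had 2.46 in I6 and −0.28 in the pool. On the lower side, Prlr, the prolactin receptor gene, had −2.21 in I6 and 0.34 in the pool, a difference of −2.55 ± 0.326 (SE, adjusted p = 1.91e-05, limma). Meis1 had −1.72 and 0.10, and the guidance gene Sema5a −0.78 and 0.73. Chat and Slc5a7 were among the lower genes in this test too. Slc5a7 passed without each of the 9 libraries in turn, and Chat passed without each but lumbar/sacral replicate 1 (adjusted p = 0.111, limma). Of the 20 genes with the largest differences, 18 passed without each library in turn. Hs3st2 and Stk32b passed in 6 omissions each and were not tested without a cervical and a lumbar/sacral library, respectively. These 20 genes had pool values between −0.75 and 0.73.

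**Figure D4:**
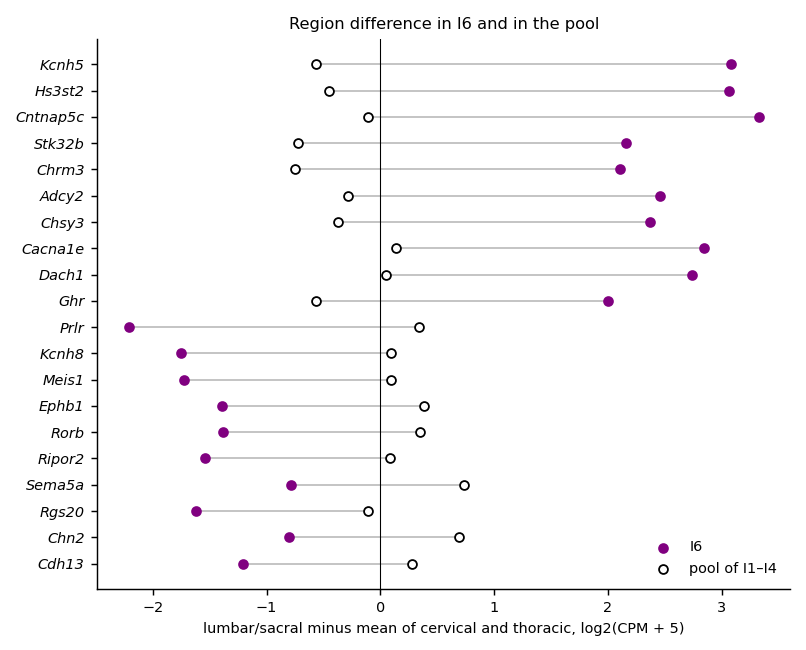
Log2 difference between the lumbar/sacral libraries and the mean of the cervical and thoracic libraries in I6 (filled) and in the pool of I1 to I4 (open), for the 20 genes with the largest tested difference between the 2. The filled points reach from −2.21 to 3.33 and the open points lie between −0.75 and 0.73.

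The 3 genes Cntnap5c, Cacna1e and Kcnh5 were not spread evenly over the lumbar/sacral I6 nuclei. They were picked for this look after their values had been seen, and what follows is a description with no test. Nuclei with counts of at least 2 of the 3 numbered 21 of 56, 20 of 58 and 19 of 57 in the lumbar/sacral libraries, together 60 of 171 (35.1%). In the cervical and thoracic libraries they numbered 25 of 373 (6.70%). In the lumbar/sacral libraries Cntnap5c and Cacna1e were found together in 49 of 171 nuclei (28.7%), where the product of their shares was 12.7%, while Cntnap5c and Chat were found together in 9 (5.26%), where the product was 18.0%. In the cervical and thoracic libraries Cntnap5c and Chat were found together in 15.3% of nuclei, beside a product of 15.4%. In the pool of I1 to I4, Cntnap5c stood at 150 ± 31.3 CPM, Cacna1e at 170 ± 23.5 CPM and Kcnh5 at 88.9 ± 20.2 CPM over the 9 libraries.

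The 60 nuclei with 2 or 3 of these genes and the 85 lumbar/sacral I6 nuclei with none had about the same corrected totals, with medians of 5642.5 and 5599. The counts had been corrected for sequencing depth, so like totals do not show that the sets had like depth. No nucleus of either set was called a doublet. The sets differed in transmitter genes. Chat stood at 10.4, 80 and 28.5 CPM in the first set and 235, 317 and 298 CPM in the second, in the order of the replicates, and counts were found in 16.7% and 71.8% of nuclei. Slc5a7 stood at 41.7, 58.2 and 66.5 CPM against 288, 332 and 323 CPM, and Aldh1a1 at 0, 14.6 and 0 CPM against 218, 69.4 and 196 CPM. In each of these genes the first set was below the second in all 3 libraries. Slc17a6 stood the other way, at 83.5, 124 and 114 CPM against 34.8, 34.7 and 31.7 CPM, with counts in 48.3% and 16.5% of nuclei. Gad1, Gad2, Slc32a1 and Slc6a5 stayed at or below 41.7 CPM in both sets, with counts in at most 8.33% of nuclei. Penk stood at 104, 218 and 57.0 CPM against 0, 9.91 and 0 CPM, Tox at 146, 131 and 133 CPM against 43.6, 9.91 and 19.0 CPM and Gabrg3, a GABA receptor subunit, at 1544, 1266 and 1500 CPM against 34.8, 9.91 and 50.7 CPM. Trpm3, Dach1 and Glra3 were also higher in all 3 libraries, and Grik1, Sgcd, Angpt1, Tacr1, Synpr and Cadps2 were lower.

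Of the 15 genes with the largest differences above the pool, 13 were lower in all 3 libraries in the nuclei with 2 or 3 of the genes and Fam19a2 was higher. Sntg2 stood at 52.2, 36.4 and 19.0 CPM in these nuclei against 305, 273 and 171 CPM in those with none, Dlk1 at 0, 58.2 and 38.0 CPM against 157, 238 and 241 CPM and Zfhx3 at 762, 575 and 702 CPM against 1516, 1164 and 1102 CPM. Prima1 was lower in all 3 libraries too, at 62.6, 124 and 19.0 CPM against 157, 377 and 323 CPM. Pax2 stood at 136, 116 and 190 CPM in the nuclei with 2 or 3 of the genes and 105, 134 and 69.7 CPM in those with none. Mpped2 stood at 198, 146 and 237 CPM against 340, 362 and 310 CPM, lower in all 3 libraries, while Pax2 was higher in 2 libraries and lower in the other. Meis2 stood at 762, 560 and 873 CPM against 810, 659 and 747 CPM, and Snap25, a general gene of neurons, at 803, 677 and 551 CPM against 749, 629 and 716 CPM, with values of the sets overlapping in both. Of the 56 other genes that were higher in the lumbar/sacral libraries, 50 were higher in the nuclei with 2 or 3 of the genes in all 3 libraries and 3 were lower. Of the 26 lower genes, 19 were lower in them in all 3. Over all genes tested, 14.2% were higher and 18.0% lower in all 3. The sets come from the same libraries that gave the calls, so these counts are no independent support for them. In the I6 nuclei with none of the genes, Chat stood at 235, 317 and 298 CPM in the lumbar/sacral libraries and at 370 CPM over the cervical and thoracic nuclei summed. The part of the regional difference in Chat that goes with the share of such nuclei was not tested.

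**Figure D5:**
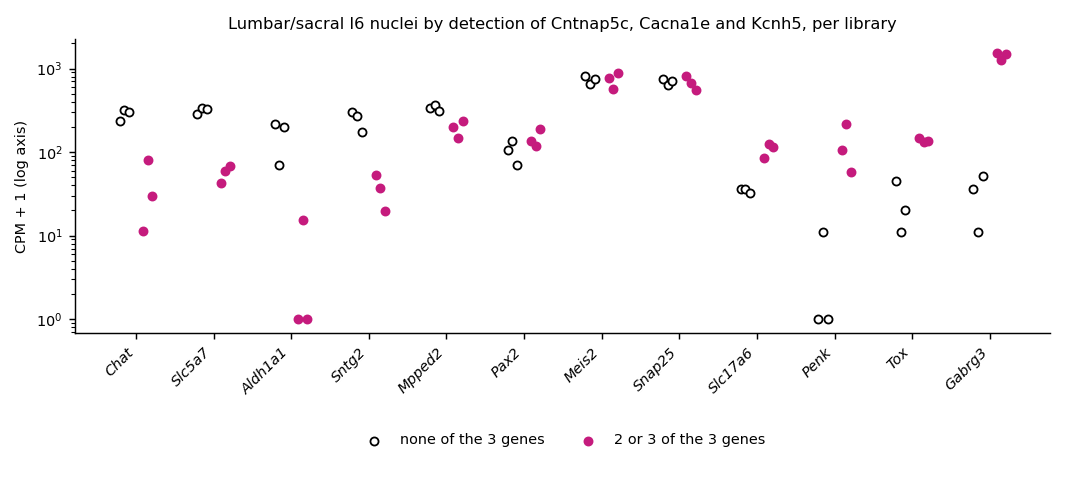
Levels of 12 genes, CPM + 1 on a log axis, in lumbar/sacral I6 nuclei with none and with 2 or 3 of Cntnap5c, Cacna1e and Kcnh5. Each pair of points is 1 of the 3 libraries. Chat, Slc5a7, Aldh1a1 and Sntg2 are lower and Slc17a6, Penk, Tox and Gabrg3 higher in the nuclei with 2 or 3, while Meis2 and Snap25 overlap.

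Between the cervical and the thoracic I6 nuclei limma called 0 of 10055 genes (0%) at an adjusted p under 0.05, and 196 had an unadjusted p under 0.05. Without the libraries labelled cervical replicate 2 and thoracic replicate 2 it also called 0, with 400 at an unadjusted p under 0.05 and a lowest adjusted p of 0.102, for Fam19a1 and Hoxc5. Single genes followed the Hox levels rather than the labels. Fam19a1 stood at 494, 110 and 655 CPM in the cervical and 183, 500 and 186 CPM in the thoracic libraries, and the serotonin receptor gene Htr2c at 123, 25.8 and 170 CPM and 33.5, 211 and 37.1 CPM. Both were low in the library labelled cervical replicate 2 and high in that labelled thoracic replicate 2. These genes were chosen after their values were seen.

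Between the male pool (replicate 2) and the female pool (replicate 3), with region as a term, 3 of 9584 genes (0.0313%) were higher in males and 1 (0.0104%) was lower, together 0.0417%, by limma with Benjamini-Hochberg adjustment, and 621 had an unadjusted p under 0.05. The Y-linked genes Uty, Eif2s3y and Kdm5d were higher, by 4.76 (adjusted p = 0.00255), 4.28 (adjusted p = 0.00654) and 3.58 (adjusted p = 0.0394) on the log2 scale, and Xist, the RNA of the inactive X chromosome, was lower, at −6.75 (adjusted p = 5.20e-05). Each sex was 1 pool of 4 mice, so sex and pool cannot be told apart, and the 3 libraries of a sex came from the same mice. The counts moved with single libraries, to 28 higher and 197 lower without cervical replicate 2, to 35 and 222 without cervical replicate 3, to 0 and 1 without thoracic replicate 2, to 2 and 0 without thoracic replicate 3, to 0 and 1 without lumbar/sacral replicate 2 and to 0 and 0 without lumbar/sacral replicate 3.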

How the data were processed

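Per the labels and the study's methods, the authors counted reads of single nuclei on mouse genes with introns included (Cell Ranger 3.1.0, mm10), filtered and clustered them in Seurat, and deposited corrected counts from SCTransform, which are treated as a score because they are regression-corrected values and not raw counts. The deposited annotation gave cluster names. The values were summed per library and cluster and scaled to CPM. Clusters were compared only in libraries with at least 10 nuclei of both. A gene was tested where at least 3 sums reached 10 CPM. Region, sex and difference contrasts were fitted by limma 3.58.1 (R 4.3.3) on log2(CPM + 5) with Benjamini-Hochberg adjustment and an adjusted p under 0.05. Shares were tested by exact permutation. Doublets were called by Scrublet in scanpy 1.11.5 and kept, and the fits were repeated without them. Python 3.11.15, numpy 2.4.6, pandas 2.3.3 and scipy 1.17.1 were used. Gene positions are from the GENCODE annotation of GRCm38. No columns of per-sample values were left unused (0).

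The 15 genes with the largest difference from the pool, 8 from I5 and 10 in each test were named in each direction, with called members of gene lists of function and cell type. A few genes are counted in the totals but not reported here. The members and lists were chosen with earlier results of these data known. Libraries with the same replicate number came from the same mice; their deviations from the region means correlated at −0.12 to 0.55 across genes. The p-values measure the spread between these libraries. On simulated 4-fold changes the fits recovered 100% of changed genes between regions and 99.2% in the difference test. Among the calls 9.84% and 8.31% were false, where 5% was the aim. Recovery of smaller differences was not tested. Recovery in the deposited libraries, where the regions of a pool came from the same mice, was not tested either.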

Additional observations from a re-analysis of the deposited data

Results flagged for a closer look

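The test of the difference between I6 and the pool of I1 to I4 flagged the regional contrast. The lumbar/sacral difference was higher in I6 than in the pool for 142 genes and lower for 87 (limma, Benjamini-Hochberg adjusted). Among the higher genes the difference between I6 and the pool, on the log2 scale, was 3.65 for Kcnh5, 3.51 for Hs3st2, 3.43 for Cntnap5c, 2.89 for Stk32b, 2.86 for Chrm3, 2.74 for Adcy2 and 2.74 for Chsy3. It was 2.71 for Cacna1e, 2.69 for Dach1 and 2.57 for Ghr, the growth hormone receptor gene. Among the lower genes it was −2.55 for Prlr, −1.85 for the potassium channel gene Kcnh8, −1.82 for Meis1, −1.78 for Ephb1, −1.73 for Rorb and −1.63 for Ripor2. It was −1.52 for Sema5a, −1.51 for Rgs20, −1.49 for Chn2 and −1.48 for Cdh13, a cadherin. Prlr and Ghr code for related cytokine receptors and stood on opposite sides, with I6 values of −2.21 and 2.00.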

How the results depend on the processing

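None of the results reversed under any alternative, and the comparisons of I6 with the pool, between cervical and thoracic nuclei and of the share over all cholinergic nuclei gave the same reading under those not named here. For the lumbar/sacral contrast, 35 genes were higher with a pseudocount of 1 and 27 where every sum had to hold at least 10 counts, which tested 4006 genes. Leaving out 1 library, or the 3 of a replicate pool, gave 4 to 61 higher and 1 to 35 lower genes, the lowest without replicate pool 3. Without both libraries whose Hox levels went against the label, an alternative chosen after seeing the data, 46 were lower. For the difference between I6 and the pool, 80 genes were higher with counts in every sum, leaving out 1 library or a replicate pool gave 58 to 171 higher and 23 to 104 lower, the lowest without replicate pool 1, and 175 were higher and 123 lower without both libraries named above. For sex, 4 genes were lower with no filter, 0 were higher and 0 lower with counts in every sum, and leaving out a library gave 0 to 35 higher and 0 to 222 lower. A pseudocount of 20 gave 236 genes higher and 236 lower against the pool. The exact permutation p of the interneuron share was 0.0429 over I1 to I7 as denominator, 0.0179 on log odds, 0.00714 to 0.267 without a library or replicate pool and 0.00952 without both of the libraries named above. Of the values of single named genes under an alternative, 2230 kept their direction and side of the threshold, 272 lost the call, 4 newly passed and 25 untested ones moved by more than the library SD. The causes were not tested.

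With the replicate block, which pairs libraries of the same mice, 107 genes were higher and 75 lower in the lumbar/sacral contrast, 131 and 75 in the difference test and 0 between cervical and thoracic nuclei (435 at an unadjusted p under 0.05), and the exact permutation p of the share was 0.0833 (216 assignments). No block could be fitted for sex, since each sex was 1 pool.

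Low corrected totals are a limit for some nuclei: 35 I6 nuclei, all lumbar/sacral, had under 4600 corrected counts. Shares of nuclei with a count cover counting error only.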

Other observations

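Within I6, some genes were present in some nuclei at high counts and absent from others. Among genes found in 20% to 80% of I6 nuclei, those with the highest mean count in the nuclei that had them were Il1rapl2, Gm28928, Kcnip4, Gpc5, Dscaml1, Gabrg3, Fam19a1, Bmpr1b, March1 and Shisa6. Il1rapl2, a synaptic adhesion protein, was found in 66.2% of I6 nuclei with a mean corrected count of 10.2 in those. Its share differed by library, at 82.5% to 100% in the lumbar/sacral libraries and 34.9% to 77.1% in the others. March1 stood at 1351, 790 and 888 CPM in the lumbar/sacral libraries and between 122 and 305 CPM elsewhere. Shisa6, an AMPA receptor partner, stood at 385 ± 131 CPM in I6, 44.1 ± 13.2 CPM in the pool and 1105 ± 348 CPM in I5 (SD, n = 9 libraries). In the lumbar/sacral nuclei Cntnap5c and Aldh1a1 were found together in 1.75%, beside a product of their shares of 11.5%, and Cntnap5c and Slc17a6 together in 16.4%, beside 9.52%. These values are across nuclei of the same libraries and share their depth.

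Fer1l6, a gene of the ferlin family, varied among the I6 libraries, with 20.8, 186 and 67.9 CPM in the cervical, 23.6, 54.6 and 312 CPM in the thoracic libraries and a mean of 121 ± 108 CPM over all 9. Gabrg3 stood at 295, 94.0 and 339 CPM in the cervical libraries and 110, 337 and 79.3 CPM in the thoracic libraries, and Bmpr1b at 310, 463 and 303 CPM and 715, 115 and 395 CPM. In both genes the library labelled cervical replicate 2 lay with the libraries labelled thoracic replicates 1 and 3, and the library labelled thoracic replicate 2 lay apart from those. Reln, which codes for the secreted protein reelin, was low in I6, at 28.4 ± 14 CPM.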
